A study of Mus musculus with 43 samples.

Results

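The 10 genes described here are the classical readouts of epithelial-mesenchymal transition (EMT): the transcription factors Snai1, Snai2, Zeb1, Zeb2 and Twist1, the epithelial adhesion genes Cdh1 and Epcam, and the mesenchymal genes Cdh2, Fn1 and Vim. They were chosen by symbol, and each of the 10 was found among the 23951 genes of every expression table and among the 54307 gene rows of every single-cell library. The question put to them was whether TGFB1 starts a mesenchymal program in intestinal organoids. EMT is a change of state in which epithelial cells loosen their junctions and take up features of mesenchymal cells. TGFB1 is a well-known inducer of it in many epithelia: through SMAD proteins it can raise SNAIL, ZEB and TWIST factors, which bind E-box motifs and repress genes such as Cdh1 and Epcam. In the healthy intestine, Epcam and Cdh1 hold the epithelial sheet together, while Vim and Fn1 come mostly from the stroma beneath it.

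The material was primary intestinal organoids from wild-type C57BL/6 mice, which are cultures grown from epithelium. Bulk RNA came from 6 groups of 3 libraries, 18 in all. Non-irradiated organoids received, on day 6, either vehicle or TGFB1 at 2 ng/mL for 24 h and were collected on day 7 (D7 non-IR). Irradiated organoids received 4 Gy on day 4 and the same vehicle or TGFB1 treatment on day 6 for 24 h, and were collected on day 7 (D7 IR) or on day 11 (D11 IR). Single-cell RNA came from D8 organoids given 4 Gy on day 4, with 1 library each after vehicle (called 0 h) and after 1 ng/mL TGFB1 for 6, 15 and 24 h. It also came from sorted Ki67-RFP+ crypt cells of Mki67tm1.1Cle/J mice, a reporter of cycling cells, with 1 library without irradiation and 2 libraries taken 56 h after 12 Gy to the whole body. The labels do not say whether the replicates were separate cultures, so p-values measure the spread between these libraries, which may be technical.

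The bulk tables held FPKM summing to between 447728 and 621996 per library, and the read depth behind them is unknown. Each table holds 1 vehicle and 1 TGFB1 group and was normalized on its own. The 7 single-cell libraries kept 699 to 4283 cells with a median of 6709 to 14399 UMIs (counted RNA molecules) per cell. No doublet caller was run. Of the 21 pairs of single-cell libraries, 2 shared 1 cell barcode each and 19 shared none. All 7 general epithelial markers checked (among them Krt8 and Vil1) reached at least 1 FPKM in every bulk group, with a summed level of 4553 to 14229 FPKM per library. Of 13 fibroblast markers, 0 reached 1 FPKM in the vehicle groups, and Pdgfra stayed at or below 0.0469 FPKM in every library. Of 14 immune markers, Cd68, Itgam and Lyz2 reached 1 FPKM in at least 1 group, while Ptprc, which marks all white blood cells, stayed at or below 0.0726 FPKM. The summed level of that list was 10.1 to 12.0 FPKM with vehicle and 22.6 to 24.0 FPKM with TGFB1 in D7 non-IR, 6.83 to 8.25 and 13.9 to 15.6 FPKM in D7 IR, and 7.66 to 11.2 and 12.2 to 14.8 FPKM at D11. Cd68, a lysosomal protein, was the largest term in D7 non-IR, at 8.57 ± 0.934 and 21.8 ± 0.952 FPKM (SD, n = 3). Their part in the member results was not tested.

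Short promoter stretches are shown for 3 members because the repressors in the set act on E-boxes. The sequences are the 250 bases before the start site in RefSeq (build GRCm38.p6), which held entries for 5 of the 10 members (Epcam, Snai1, Twist1, Vim and Zeb2). Cdh1, Cdh2, Fn1, Snai2 and Zeb1 are named only. The stretches lie at chr17:87635729-87635978 (Epcam), chr2:167537945-167538194 (Snai1) and chr2:13574061-13574310 (Vim), each on the plus strand. Capitals mark matches to the E-box CACCTG, searched on both strands.

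Epcam: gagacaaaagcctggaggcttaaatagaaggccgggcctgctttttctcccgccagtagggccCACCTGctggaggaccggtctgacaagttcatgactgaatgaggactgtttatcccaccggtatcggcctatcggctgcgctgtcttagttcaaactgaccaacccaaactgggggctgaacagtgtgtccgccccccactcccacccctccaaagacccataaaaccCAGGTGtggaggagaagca

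Snai1: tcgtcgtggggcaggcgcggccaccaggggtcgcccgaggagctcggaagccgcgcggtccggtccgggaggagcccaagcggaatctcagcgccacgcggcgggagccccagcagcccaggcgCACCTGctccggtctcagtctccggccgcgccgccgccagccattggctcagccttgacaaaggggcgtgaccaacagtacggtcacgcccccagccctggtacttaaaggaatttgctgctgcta

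Vim: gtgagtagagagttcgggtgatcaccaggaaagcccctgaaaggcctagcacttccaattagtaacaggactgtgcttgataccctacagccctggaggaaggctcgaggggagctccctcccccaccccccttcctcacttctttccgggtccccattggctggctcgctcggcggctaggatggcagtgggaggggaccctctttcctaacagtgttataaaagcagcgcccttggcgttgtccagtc

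The Epcam stretch held 2 E-boxes, 187 and 19 bases before the start. The Snai1 stretch held 1, 126 bases before the start, and the Vim and Twist1 stretches held 0. Of 32851 promoter stretches of this length, 17.2% held the E-box. The AP-1 motif TGAGTCA, also searched on both strands, was in 4.46% of all stretches, and in these 5 members it matched 2 times, both at 1 of the 4 Zeb2 starts, where the stretch held 0 E-boxes. The palindromic SMAD motif GTCTAGAC was in 0.167% of all stretches and in none of the members'. A match describes the letters only and is no evidence of binding.

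With TGFB1 the epithelial adhesion genes Epcam and Cdh1 were higher at day 7, and the EMT factors among the members stayed near 0. At day 11 Fn1 was higher with TGFB1 while Vim was lower. Epcam, Cdh1 and Vim averaged 1 FPKM or more in all 3 tables. Fn1 reached that level in the TGFB1 groups only. The other 6 members stayed at or below 0.313 FPKM in every library. Each comparison used limma on log2(FPKM + 1) for the genes whose mean in the 6 libraries of a table reached 1 FPKM, with p-values adjusted over all genes tested by Benjamini-Hochberg and a call at an adjusted p under 0.05. Of 3 members tested in D7 non-IR organoids, 2 were called higher and 0 lower, where 33.3% of all genes tested were called higher and 34.9% lower. Of 4 tested in D7 IR organoids, 3 were called higher and 0 lower, against 35.8% and 39.7% of all genes tested. Of 4 tested in D11 IR organoids, 1 was called higher and 1 lower, against 32.3% and 31.6%. With so many genes called in each direction, these counts by themselves do not set the members apart, and the values below carry the description.

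**Figure D1:**
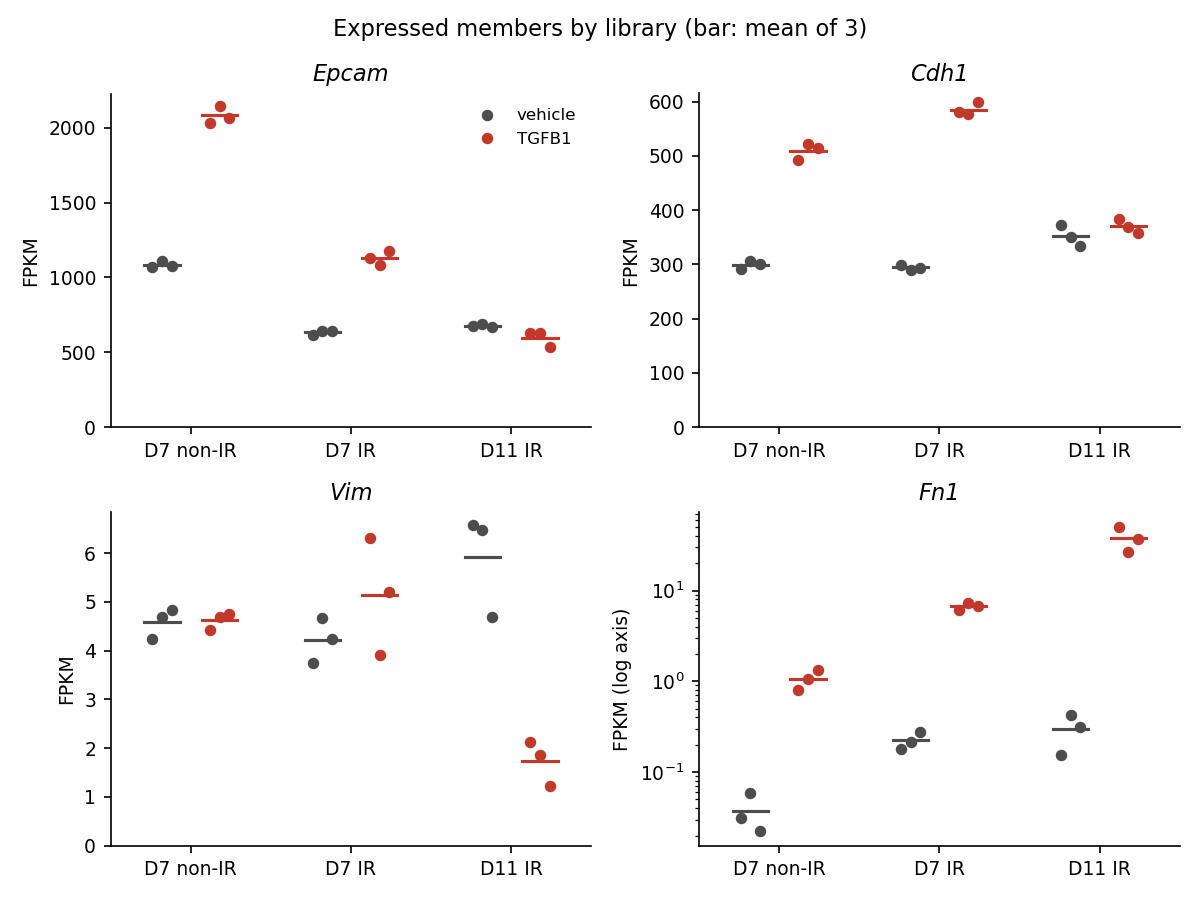
FPKM of Epcam, Cdh1, Vim and Fn1 (log axis for Fn1) in each of the 3 libraries of a group, by table, with vehicle in grey, TGFB1 in red and bars at the mean. Epcam and Cdh1 are above vehicle in both D7 tables and not at D11, Vim is below vehicle at D11, and Fn1 is above vehicle in all 3 tables.

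Epcam, which encodes an adhesion molecule of epithelial cells, was the member with the highest level in every group. Without irradiation it measured 1071, 1107 and 1077 FPKM with vehicle and 2033, 2148 and 2067 FPKM with TGFB1. Every TGFB1 library was above every vehicle library, and the means (1085 ± 19.1 and 2082 ± 58.7 FPKM, SD, n = 3) stood in a ratio of 1.92. The log2 change was 0.94 (SE 0.0296, limma adjusted p = 6.2e-10). Epcam in D7 IR organoids measured 617, 644 and 640.2 FPKM with vehicle and 1133, 1082 and 1174 FPKM with TGFB1. The groups were again apart, with a ratio of 1.78 and a log2 change of 0.83 (SE 0.0400, limma adjusted p = 1.8e-08). At D11 it measured 675, 690.5 and 669 FPKM with vehicle and 630.5, 630.3 and 532 FPKM with TGFB1. The TGFB1 libraries were all below the vehicle libraries, but the log2 change of -0.19 (95% interval -0.44 to 0.07) did not pass the test (limma adjusted p = 0.173). With quantile normalization it was 0.08 in the other direction, and in a fit of all 18 libraries, where it was again -0.19, it passed (limma adjusted p = 0.0156).

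Cdh1 encodes E-cadherin, the adherens junction protein whose loss is the standard sign of EMT. It did not fall in any of the 3 tables. The D7 non-IR libraries measured 292, 307 and 300.5 FPKM with vehicle and 491, 522 and 514 FPKM with TGFB1, a log2 change of 0.76 (SE 0.0331, limma adjusted p = 6.9e-09) and a ratio of 1.70. The D7 IR libraries measured 299.8, 290.5 and 293.8 FPKM with vehicle and 580.1, 576 and 599.5 FPKM with TGFB1, a log2 change of 0.99 (SE 0.0343, limma adjusted p = 1.9e-09) and a ratio of 1.99. The groups did not overlap in either table. At D11 they did overlap, at 372, 350.3 and 334 FPKM with vehicle and 384, 369 and 357 FPKM with TGFB1. The log2 change there was 0.07 (95% interval -0.14 to 0.29, limma adjusted p = 0.536). Under quantile normalization it was 0.29 and passed (limma adjusted p = 0.0389).

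Fn1 encodes fibronectin, a matrix glycoprotein and a common TGFB target. Its ratio of TGFB1 to vehicle was larger than that of Epcam, Cdh1 or Vim in every table. Without irradiation it measured 0.0309, 0.0589 and 0.0227 FPKM with vehicle and 0.807, 1.07 and 1.33 FPKM with TGFB1. This mean was under the filter, so the gene was not tested there. Without the filter the log2 change was 0.99 (limma adjusted p = 7.5e-05). After irradiation, at D7, it measured 0.179, 0.217 and 0.277 FPKM with vehicle and 6.07, 7.32 and 6.78 FPKM with TGFB1. The log2 change was 2.66 (SE 0.0869), with a limma adjusted p of 3.6e-07 in the fit without the filter. At D11 it measured 0.155, 0.427 and 0.314 FPKM with vehicle and 50.0, 26.7 and 37.4 FPKM with TGFB1. The log2 change was 4.87 (SE 0.202), with a limma adjusted p of 1.2e-05 in the fit without the filter. The groups did not overlap in any table. In D7 IR and D11 IR, Fn1 passed the filter through its TGFB1 libraries alone; a gene that passes in this way has to differ, so it supports no count. Apart from Fn1, 2 of 3 members tested were higher in D7 IR, and 0 of 3 higher and 1 lower at D11. The pseudocount of 1 compresses low levels: the ratios of mean FPKM were 28.5, 30.0 and 127 in the 3 tables, and with a pseudocount of 0.1 the log2 changes in D7 IR and D11 IR were 4.4 and 6.6.

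Vim encodes vimentin, the intermediate filament of mesenchymal cells. It did not rise in any table by the test. The D7 non-IR libraries held 4.23, 4.69 and 4.83 FPKM with vehicle and 4.42, 4.70 and 4.74 FPKM with TGFB1. These groups overlapped, with a log2 change of 0.01 (95% interval -0.13 to 0.15, limma adjusted p = 0.898). The D7 IR libraries held 3.75, 4.67 and 4.24 FPKM with vehicle and 6.30, 3.91 and 5.20 FPKM with TGFB1. The log2 change was 0.22 (95% interval -0.08 to 0.52, limma adjusted p = 0.166). TGFB1 replicate 2 was the low library there, and without it the change was 0.37 and passed (limma adjusted p = 0.00858). At D11 it measured 6.57, 6.48 and 4.68 FPKM with vehicle and 2.12, 1.86 and 1.23 FPKM with TGFB1. All TGFB1 libraries were lower, with a ratio of 0.293 and a log2 change of -1.34 (SE 0.156, limma adjusted p = 5.2e-05).

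Markers of enteroendocrine cells, the hormone-secreting cells of the epithelium, fell beside Vim at D11. The summed level of 7 such markers (Chga, Chgb, Neurod1, Tac1, Tph1, Cck and Gcg) ranged from 557 to 612 FPKM with vehicle and from 1299 to 1358 FPKM with TGFB1 in D7 IR organoids. At D11 the range was 945 to 1125 FPKM with vehicle and 368 to 465 FPKM with TGFB1. Without irradiation it was 433 to 457 and 424 to 449 FPKM. By the limma test 7 of 7 markers were higher in D7 IR, where 35.8% of all genes tested were called higher. At D11 7 of 7 were lower (median log2 change -1.70), against 31.6% of all genes tested. Of the 7, 1 was higher and 2 were lower in D7 non-IR, against 33.3% and 34.9% of all genes tested. Marker lists of other cell types also moved at D11. Of 9 enterocyte markers 6 were lower and 0 higher (median -0.92), and of 7 goblet markers 4 were lower and 1 higher (median -0.49). Of 7 Paneth markers 5 were higher and 0 lower, and all 5 regenerative markers with both groups at 1 FPKM or more were higher. At D11 32.3% of all genes tested were called higher and 31.6% lower. The part of any of these lists, the enteroendocrine one included, in the Vim result was not tested. In bulk RNA, fewer cells of a type and less RNA per cell cannot be told apart.

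**Figure D2:**
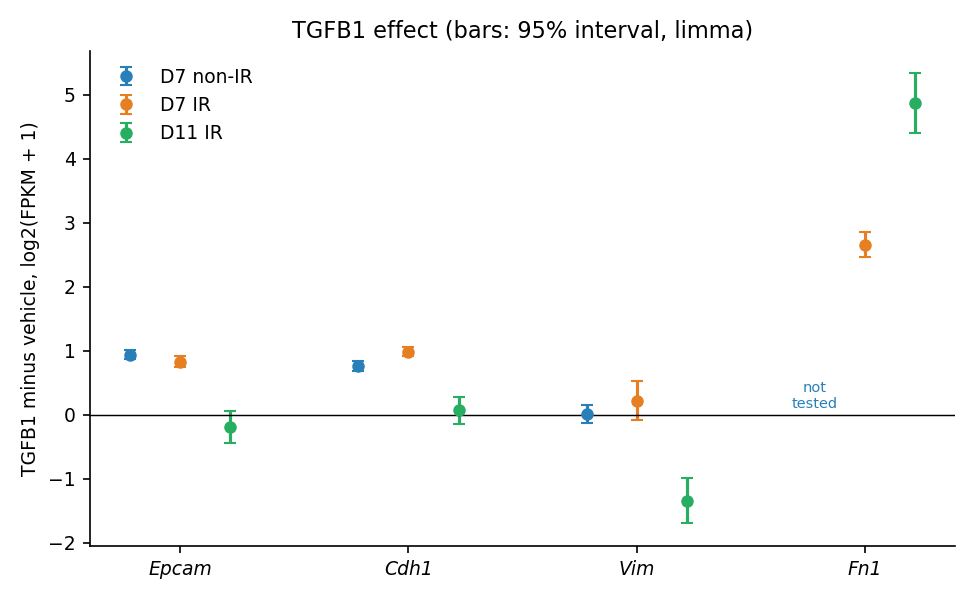
Difference between TGFB1 and vehicle on the log2(FPKM + 1) scale for Epcam, Cdh1, Vim and Fn1 in the 3 tables, with 95% intervals from limma (3 libraries a group); Fn1 in D7 non-IR organoids was under the filter. Epcam and Cdh1 stand near 0.8 to 1.0 at D7 and near 0 at D11, Vim falls to -1.34 at D11, and Fn1 reaches 4.87.

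The EMT transcription factors among the members, and Cdh2, were all but absent from the bulk libraries. Snai1, Snai2, Zeb1, Zeb2, Twist1 and Cdh2 (N-cadherin, the cadherin that replaces E-cadherin in classical EMT) gave 108 values in the 18 libraries, of which 54 were listed at 0, and the highest was 0.313 FPKM. None of the 6 passed the filter in any table. Exact permutation tests on FPKM (two-sided, 18 tests) cannot go below p = 0.1 with 3 libraries against 3, and 4 tests gave that value. The share of all genes at that value is not given here, so nothing is read from this count.

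Snai2 encodes SLUG, and in D7 IR organoids it was the highest of the 6. It measured 0.229, 0.313 and 0.267 FPKM with vehicle, while with TGFB1 it was listed at 0 in replicates 1 and 3 and at 0.0739 FPKM in replicate 2. Snai1, which encodes SNAIL, measured 0.0560, 0.0782 and 0.116 FPKM with vehicle in that table, and with TGFB1 it was 0.0202 FPKM in replicate 1 and listed at 0 in both other libraries. For both genes every TGFB1 library was thus below every vehicle library in that table (exact permutation p = 0.1 each, the lowest possible). These levels are near 0 at unknown read depth, so nothing about EMT is concluded from them. Without a filter on low values, limma gave a log2 change of -0.31 for Snai2 (adjusted p = 5.0e-04) and -0.11 for Snai1 (adjusted p = 0.0146).

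At D11 both genes showed no such difference. Snai1 measured 0, 0.0373 and 0.0369 FPKM with vehicle and 0.126, 0.0626 and 0.0302 FPKM with TGFB1 (exact permutation p = 0.3), so these groups overlapped. Snai2 was at 0.0343 FPKM in vehicle replicate 1, and at 0.125 and 0.0303 FPKM in TGFB1 replicates 2 and 3, with the other libraries listed at 0. Zeb1, a zinc-finger repressor, was at 0.0105, 0.0159 and 0.0104 FPKM with vehicle in D7 non-IR organoids and listed at 0 in all 3 TGFB1 libraries (exact permutation p = 0.1). Zeb1 stayed at or below 0.0426 FPKM and its relative Zeb2 at or below 0.0232 FPKM in every library. Twist1, a basic helix-loop-helix factor, was above 0 in 4 of the 18 libraries, at most 0.126 FPKM. Cdh2 at D11 was at 0.00683, 0 and 0.00708 FPKM with vehicle and at 0.0243, 0.0123 and 0.0119 FPKM with TGFB1 (exact permutation p = 0.1). Its highest level was 0.106 FPKM, in a D7 IR vehicle library.

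**Figure D3:**
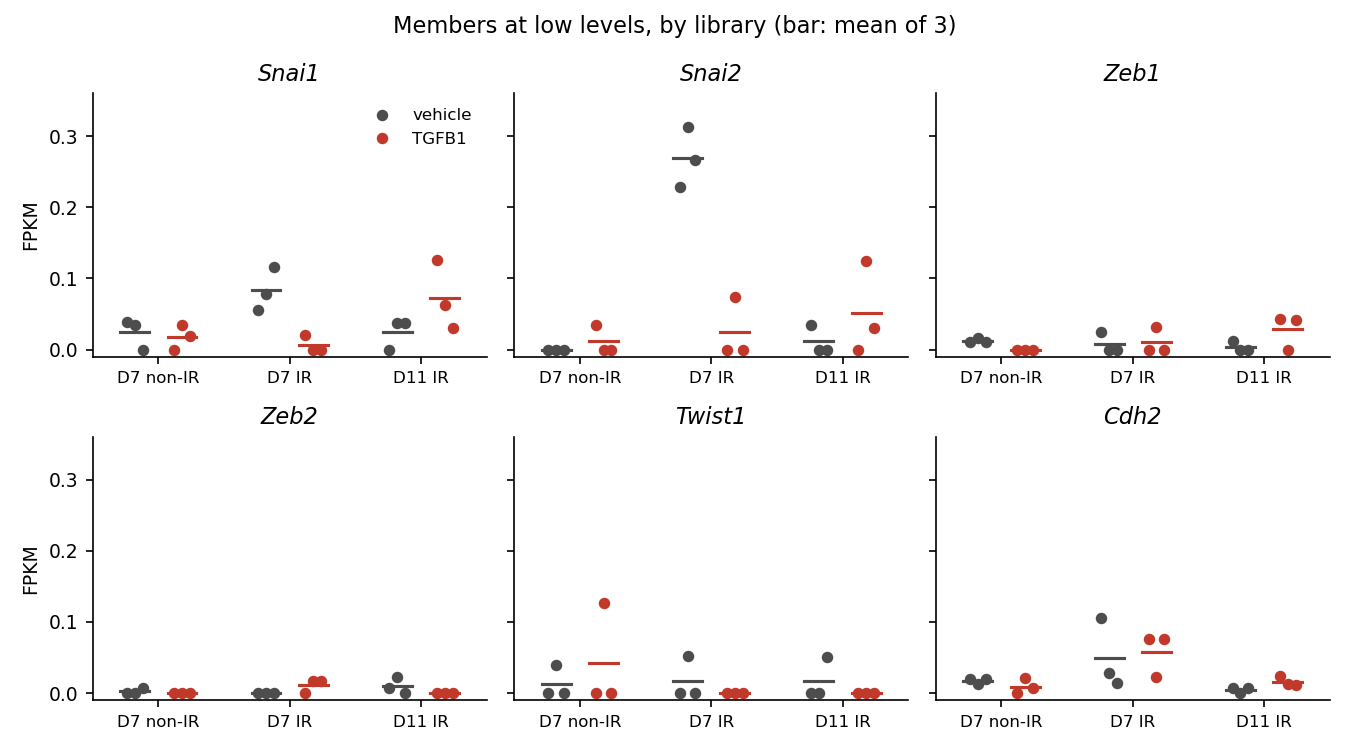
FPKM of the 6 members at low levels in each library, by table, with vehicle in grey, TGFB1 in red and bars at the mean of 3. The axis ends at 0.36 FPKM; the 3 Snai2 values in D7 IR vehicle libraries (0.229 to 0.313 FPKM) are the highest of the 108.

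The TGFB1 effect on Cdh1 was larger in irradiated than in non-irradiated D7 organoids, while for Fn1 the scale sets how far the effects differed. In the interaction of irradiation with TGFB1 over the 12 D7 libraries, 2 of 4 members tested were called higher and 0 lower, where 25.3% of all genes tested were called higher and 27.8% lower. The 2 were Cdh1 and Fn1, and Fn1 passed the filter through its TGFB1 libraries alone, so it supports no count. The Cdh1 effect was larger in irradiated organoids by 0.23 on the log2 scale (SE 0.0459, limma adjusted p = 8.3e-04). The Fn1 effect was larger by 1.67 (SE 0.135), with a limma adjusted p of 2.1e-06 in the fit without the filter. Fn1 was under the filter in D7 non-IR and its vehicle values were near 0, the ratios of mean FPKM were 28.5 and 30.0 (a difference not tested), and with a pseudocount of 0.1 the term was 1.33 (limma adjusted p = 0.0020). The Epcam effect was smaller by 0.11, short of the threshold (limma adjusted p = 0.0835). It passed with quantile normalization (-0.27, limma adjusted p = 1.5e-04) and without D7 IR TGFB1 replicate 3 (-0.14, limma adjusted p = 0.026). The Vim term was 0.21 (95% interval -0.13 to 0.55, limma adjusted p = 0.292), and without D7 IR TGFB1 replicate 2 it was 0.36 and passed (limma adjusted p = 0.0226).

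Between day 7 and day 11 the TGFB1 effects on Cdh1, Epcam and Vim differed. In the interaction of day with TGFB1 over the 12 irradiated libraries, 1 of the 4 members tested was called higher and 3 lower, against 31.5% and 33% of all genes tested. The higher one was Fn1, which passed the filter through its TGFB1 libraries alone and so supports no count. The Fn1 effect was larger at D11 by 2.22 (SE 0.235), with a limma adjusted p of 2.4e-05 in the fit without the filter. The effects on Cdh1 (-0.92, SE 0.0914, limma adjusted p = 1.1e-06), Epcam (-1.02, SE 0.113, limma adjusted p = 3.0e-06) and Vim (-1.56, SE 0.227, limma adjusted p = 4.2e-05) were smaller or turned negative at D11.

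Most genes on a junction and keratin list were called higher with TGFB1, fewer of them at D11 than at D7. All 22 genes of this list (catenins, desmosome and tight junction genes, Cdh17 and keratins) reached a mean of 1 FPKM in both groups of every table. Without irradiation 21 were called higher and 1 lower (median log2 change 0.81, against -0.02 over all genes tested). At D7 after irradiation 22 of 22 were higher (median 1.04, against -0.03), and at D11 15 were higher and 2 lower (median 0.53, against 0.01). In the same order of tables, 33.3, 35.8 and 32.3% of all genes tested were called higher and 34.9, 39.7 and 31.6% lower. Cldn4, a claudin of tight junctions, measured between 247 and 262 FPKM with vehicle and between 1074 and 1182 FPKM with TGFB1 in D7 non-IR organoids. After irradiation, at D7, Cldn4 measured between 112 and 120 FPKM with vehicle and between 1300 and 1499 FPKM with TGFB1. Krt18, a keratin of simple epithelia, had log2 changes of 1.73 and 1.93 in the D7 tables, and its partner Krt8 1.57 and 1.52. The 2 lower genes at D11 were claudins of tight junctions, Cldn7 (log2 change -0.35, limma adjusted p = 0.0349) and Cldn3. Cldn3 measured 560, 788 and 734 FPKM with vehicle and 317, 348 and 259 FPKM with TGFB1 at D11 (log2 change -1.16, limma adjusted p = 1.3e-04).

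Of 22 mesenchymal effector genes, most were too low to test. Without irradiation 6 passed the filter and all 6 were higher, in D7 IR organoids 8 of 8, and at D11 7 of 7, where 33.3, 35.8 and 32.3% of all genes tested were called higher. Of these, 1, 3 and 2 had passed only through their TGFB1 group (S100a4 in each table, with Tagln and Acta2 in D7 IR and Tagln at D11), which leaves 5 in each table, all higher, with both groups at 1 FPKM or more. Itgav, an integrin subunit that also takes part in releasing active TGFB, had log2 changes of 2.09, 1.94 and 1.53 in the 3 tables. S100a4, a calcium-binding protein, had 1.52, 1.90 and 2.97. Acta2, the smooth muscle actin, measured 0.332, 0.558 and 0.366 FPKM with vehicle and 2.56, 2.95 and 4.14 FPKM with TGFB1 in D7 IR organoids. It was the only one of the 13 fibroblast markers to reach 1 FPKM in any group, and the summed level of that list, Acta2 included, was 0.682 to 0.926 FPKM with vehicle and 3.28 to 4.99 FPKM with TGFB1 there. Col1a1, under the filter throughout, had D7 non-IR means of 0.0358 FPKM (vehicle) and 0.282 FPKM (TGFB1), D7 IR means of 0.00498 and 0.397 FPKM, and D11 means of 0.00253 and 0.0390 FPKM. Col3a1, Lum and Dcn were at 0 in at least 1 of the TGFB1 groups, and the part of fibroblast RNA in these results was not tested.

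Among 12 other factors linked to EMT, Runx1, Foxq1 and Snai3 were expressed and rose. Without irradiation 6 of 7 tested were higher and 1 lower, in D7 IR organoids 5 of 8 higher and 2 lower, and at D11 5 of 7 higher and 1 lower. Over all genes tested, 33.3, 35.8 and 32.3% were higher and 34.9, 39.7 and 31.6% lower. Runx1, a factor of blood and epithelial stem cells, measured 2.84, 2.74 and 2.5 FPKM with vehicle and 12.1, 13.3 and 12.8 FPKM with TGFB1 in D7 non-IR organoids, with log2 changes of 1.89, 2.46 and 1.26 in the 3 tables. Foxq1, a forkhead factor, had 1.32, 2.31 and 1.03, and Sox4, an SRY-box factor downstream of TGFB, had 1.61, 2.05 and 0.65. Snai3, the third SNAIL family gene, differed from Snai1 and Snai2. At D11 Snai3 measured 1.94, 1.79 and 1.59 FPKM with vehicle and 6.47, 5.80 and 6.02 FPKM with TGFB1 (log2 change 1.36, limma adjusted p = 2.4e-06). Hmga2, a chromatin protein that can drive EMT, fell, with log2 changes of -0.77, -1.73 and -1.46.

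Factors that hold the epithelial state were called in both directions. Of 15 such genes (among them Esrp1, Grhl2 and Cdx2), 8 were higher and 5 lower in each D7 table, and 9 higher and 5 lower at D11, and of these Grhl1 had passed the filter only through its TGFB1 group in both irradiated tables. The lower calls were 5 of 15 in each table, near the 34.9, 39.7 and 31.6% of all genes called lower. The share of all genes called higher was 33.3, 35.8 and 32.3%. Grhl3, a grainyhead factor of epithelial barriers, had log2 changes of 2.24, 2.68 and 2.60, and Foxa1, a pioneer factor, 1.36, 1.49 and 1.66. Most direct TGFB targets tested were called higher in each table. Of 11 tested, 9, 8 and 8 were higher and 2, 2 and 1 lower in the order D7 non-IR, D7 IR and D11. Over all genes tested, 33.3, 35.8 and 32.3% were called higher and 34.9, 39.7 and 31.6% lower. Pmepa1, a feedback inhibitor of TGFB signalling, had log2 changes of 4.31, 4.46 and 3.92. Tgfbi, a matrix protein named for its induction by TGFB, fell in all 3 tables (-1.16, -0.36 and -2.44), and in D7 non-IR and D11 only its vehicle group reached 1 FPKM.

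**Figure D4:**
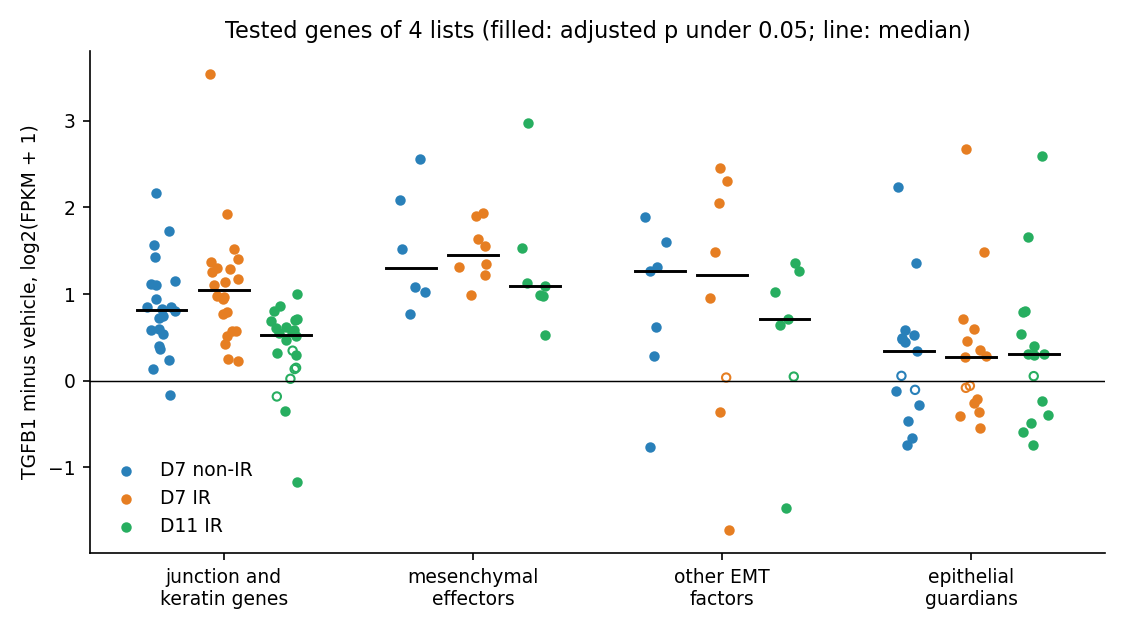
Difference between TGFB1 and vehicle on the log2(FPKM + 1) scale for each tested gene of 4 lists in the 3 tables; filled points passed the test, open points did not, and lines mark list medians. In the D7 tables the junction genes have medians of 0.81 and 1.04, above the -0.02 and -0.03 of all genes.

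The genes whose levels followed each member most closely were taken by Pearson correlation of log2(FPKM + 1) over the 18 libraries, among 10823 genes averaging 1 FPKM or more in every table. This describes 6 groups in 3 separately normalized tables, and no test is given. For Cdh1 they were Rapgefl1 (r = 0.985), Paqr5 (0.982) and Mlph (0.971). For Epcam they were Casp8 (0.993), Lpin2 (0.984) and Epb4.1l4b (0.983). For Vim they were Fgl2 (0.915), Casp9 (0.913) and Glrx (0.907).

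In single cells of irradiated D8 organoids, Epcam and Cdh1 were in most cells and their levels were higher in the TGFB1 libraries than at 0 h. Snai1, Snai2, Zeb1, Zeb2 and Twist1 stayed at 10 UMIs or fewer per library, while several other EMT-linked factors had more. With 1 library per time there is no replicate check and no test. Levels are the summed UMIs of a gene scaled to all UMIs of the kept cells (CPM), with exact Poisson 95% intervals, and shares of cells carry exact binomial 95% intervals. Both cover counting error only. The deposited UMI values are expected counts (estimated UMI counts) and can be fractional. The labels do not state how they were estimated. A cell was counted as positive when it held at least 1 UMI of the gene.

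Epcam stood at 1105 (1093 to 1118), 1547 (1534 to 1561), 1665 (1649 to 1680) and 1620 (1606 to 1634) CPM at 0, 6, 15 and 24 h. Cdh1 stood at 409 (401 to 416), 497 (489 to 504), 561 (552 to 570) and 603 (595 to 612) CPM. All 3 TGFB1 libraries were above the vehicle library for both genes. The share of cells with a Cdh1 UMI was 90.3, 89.6, 90.8 and 92.3%. After each cell was thinned to 2000 UMIs (3 cells at 6 h were shallower and left out), it was 50.7, 58.8, 57.8 and 60.4%. Thinned Epcam shares were 85.5, 91.8, 93.6 and 91.7%.

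Fn1 stood at 1.47 (1.04 to 1.99), 1.17 (0.829 to 1.61), 1.43 (1.02 to 1.98) and 7.46 (6.54 to 8.51) CPM at 0, 6, 15 and 24 h, so the 24 h library alone was high. Its positive cells were 33 of 2932, 27 of 4283, 25 of 2890 and 87 of 2218, or 1.13, 0.630, 0.865 and 3.92%. After thinning the shares were 0.443, 0.210, 0.104 and 1.13%. A single cell held 53.7 of the 228.5 Fn1 UMIs at 24 h, and the top 10 cells held 58.6%. That cell also held 25 Epcam, 32 Cdh1 and 84 Krt8 UMIs and 0 of Vim, Ptprc and Col1a1. Without it the level was 5.71 CPM, and without the top 10 cells it was 3.11 CPM, both limits chosen after the data were seen. All 87 positive cells at 24 h had Epcam and 84 had Cdh1, where 99.8 and 92.1% of the other cells had them. The median depth of the positive cells was 17373 UMIs, against 10252 in the other cells.

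By cluster at 24 h, Fn1 was highest in cluster 5, a regenerative-like cluster led by Anxa8, Ly6d and Cwh43 with Anxa1 and Msln among its top 10 genes, at 22.1 CPM in 265 cells, and at 11.4 CPM there without the top cell. Cluster 1, led by Fstl1, Cym and Lgr5, had 8.90 CPM. The 7 other clusters with more than 1 cell had 1.80 to 5.54 CPM. The lowest of them, a cluster led by small RNA genes, had 4 positive cells of 428 (0.935%), and positive shares in clusters 5 and 1 were 6.04 and 5.23%. Their median depths at 24 h were 5596, 17085 and 12195 UMIs and the shares were not thinned by cluster, so no order is read from them. No cluster is known to lack Fn1, so no background share is given. The bulk D7 IR organoids received another dose and were collected on another day, so no comparison was made between the assays.

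Vim was rare in every library. The organoid libraries held 5, 9, 16 and 25 Vim UMIs in 4, 9, 16 and 14 cells, or 0.183 (0.0594 to 0.427), 0.278 (0.127 to 0.527), 0.608 (0.348 to 0.988) and 0.816 (0.528 to 1.21) CPM. At 24 h 16 of the 25 UMIs lay in 6 of the 73 cells of cluster 9, which is led by Afp, Tff3 and Reg4 and holds goblet and enteroendocrine markers together, so it was left unnamed. The other 9 UMIs were spread over 8 cells. The numbers of Vim-positive cells with Chga were 0 of 4, 0 of 9, 3 of 16 and 9 of 14 at 0, 6, 15 and 24 h, and Chga was in 1.91, 1.57, 4.42 and 7.58% of the other cells. Of the 14 positive cells at 24 h, 13 had Epcam, 14 had Krt8, and 0 had Ptprc or Col1a1. In the cells without Vim the shares with Epcam, Krt8, Ptprc and Col1a1 were 99.8, 100, 0.318 and 0.227%. The 14 positive cells were shallower than the others, with a median of 6712 against 10487 UMIs.

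The transcription factors among the members stayed near the limit of detection. Snai1 had 2, 4, 7 and 5 UMIs at 0, 6, 15 and 24 h, each in a separate cell. Snai2 had 10, 3.2, 1.49 and 0.2 UMIs. Its levels of 0.366 (0.175 to 0.673) CPM at 0 h and 0.00653 (0 to 0.12) CPM at 24 h had intervals that did not overlap. There were 7 and 0 positive cells, and 1 cell held 3 of the 10 UMIs at 0 h. Zeb1 had 1, 0, 0.333 and 1.45 UMIs and Zeb2 had 2.67, 5.33, 4.67 and 6.58, of which 81.25 to 100% were fractional. Cdh2 had 1.5, 0, 0 and 1 UMI. Twist1 had 0 UMIs at all 4 times, and a count of 0 allows up to 0.102% of cells with a UMI at 0 h (3 cells of 2932), or 0.126% by the exact binomial interval. At this depth no rise of these genes was detectable.

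Of the 12 other EMT-linked factors, Sox4, Foxq1 and Runx1 had more UMIs than Snai1, Snai2, Zeb1, Zeb2 and Twist1 in every organoid library. Twist2 and Klf8 had 0 UMIs at all 4 times and Foxc2 and Gsc had 0 to 2. At 0, 6 and 15 h, Snai3 stood at 1.13, 3.52 and 3.00 CPM and Prrx1 at 3.44, 4.93 and 5.44 CPM. Tcf4 stood at 22.8, 31.2 and 38.3 CPM and Tcf3 at 78.0, 73.0 and 73.5 CPM at those times, and their 24 h levels are not given here. Sox4 stood at 163, 267, 446 and 569 CPM at 0, 6, 15 and 24 h, Foxq1 at 33.1, 48.6, 76.8 and 104 CPM, and Runx1 at 7.72, 23.0, 36.3 and 60.9 CPM, each higher at every later time. Hmga2 was lower in the TGFB1 libraries, at 14.7, 11.8, 7.77 and 8.51 CPM. The 22 junction and keratin genes summed to 7502, 9222, 12129 and 13826 CPM. The 13 fibroblast markers summed to 1.47, 1.80, 1.80 and 3.89 CPM at 0, 6, 15 and 24 h. Of that list, Col1a2 stood at 0.791, 0.673, 0.792 and 2.62 CPM and Acta2 at 0.0183, 0.123, 0.418 and 0.555 CPM, while Col3a1 was at 0 at 0, 15 and 24 h. Their part in the Fn1 level was not tested. The 14 immune markers summed to 4.54, 4.24, 4.00 and 3.28 CPM.

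**Figure D5:**
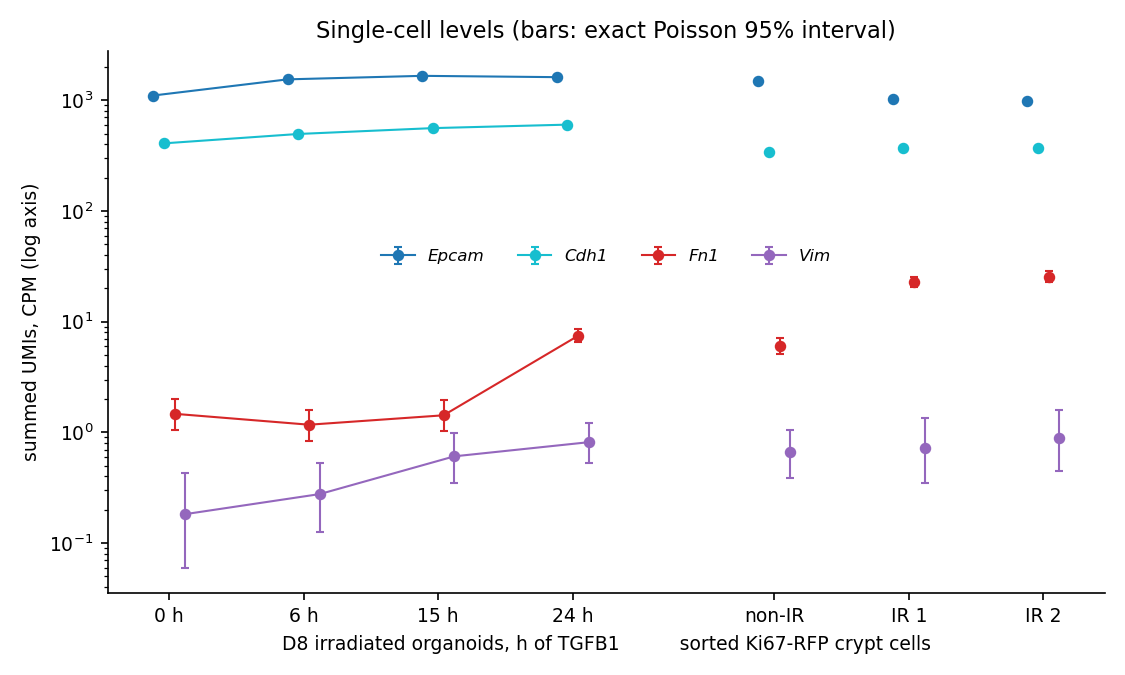
Level of Epcam, Cdh1, Fn1 and Vim in each single-cell library as CPM of summed UMIs on a log axis, with exact Poisson 95% intervals; lines join the 4 organoid times, and the 3 sorted crypt libraries stand to the right. Fn1 is high at 24 h (7.46 CPM) and in both irradiated crypt libraries (22.8 and 25.5 CPM), and Vim stays below 1 CPM.

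In sorted crypt cells the members were compared as levels only, since the non-irradiated group has 1 library. Epcam stood at 1480 (1465 to 1495) CPM without irradiation and at 1035 (1018 to 1052) and 988 (971 to 1006) CPM in irradiated libraries 1 and 2. Thinned shares of Epcam-positive cells were 92.3, 81.6 and 81.5%. Cdh1 stood at 340.5 (333 to 348), 371 (361 to 381) and 369 (359 to 380) CPM. Both irradiated libraries were thus lower for Epcam and slightly higher for Cdh1, whose thinned shares of 48.6, 50.5 and 47.4% did not follow that order.

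Fn1 stood at 6.04 (5.14 to 7.08) CPM without irradiation and at 22.8 (20.4 to 25.5) and 25.5 (22.8 to 28.5) CPM with it. The positive shares were 6.45, 24.9 and 23.2%, and 1.35, 5.01 and 4.15% after thinning. This difference depends on how the fractional entries are counted. Fractional entries held 50.5% of the Fn1 UMIs without irradiation and 98.1 and 91.4% in the irradiated libraries, against 14.4, 22.0 and 20.6% of all UMIs there. With whole-number entries only, a rule that drops each fractional entry in full, the levels were 3.49, 0.560 and 2.76 CPM, and the order turned over. With every entry rounded down to a whole number, an alternative added after the data were seen, the levels were 5.41, 20.8 and 23.3 CPM. Rounding down kept 138, 282 and 285 of the 155.6, 313.6 and 315.3 Fn1 UMIs, and the irradiated libraries stayed higher. A pair of clusters held most of the irradiated cells and none of the non-irradiated ones. In the unnamed cluster 1 (led by Gm48610, Gm49494 and Siglec1) Fn1 stood at 27.4 and 43.1 CPM, and in the regenerative-like cluster 2 (led by Anxa8, Gm25829 and Il1rn, with Clu and Anxa1) at 15.0 and 12.7 CPM. The 8 cells of the immune-like cluster 8 (led by Gzma and Ccl5) held 0 Fn1 UMIs.

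Part of the Vim UMIs of the crypt cells lay in an immune-like cluster. The libraries held 17, 10 and 11 Vim UMIs, of which 8, 4 and 8 fell in the 2, 4 and 2 cells of the immune-like cluster 8. Any of the 14 immune markers was present in 2 of 9 Vim-positive cells without irradiation and in 8 of 9 and 4 of 5 in the irradiated libraries. In the cells without Vim the shares were 14.1, 15.1 and 11.8%. Without cells holding a Ptprc or Col1a1 UMI, Vim stood at 0.353, 0.227 and 0.248 CPM, against 0.660, 0.728 and 0.891 CPM with them. Snai1 had 22, 14 and 10 UMIs (0.854, 1.02 and 0.810 CPM) and Zeb2 21.1, 12.5 and 10.5 UMIs (0.820, 0.911 and 0.851 CPM), with overlapping intervals. Snai2 had 6.11, 0 and 0 UMIs, Zeb1 1.62, 3.31 and 4.33, Cdh2 1, 0.624 and 5.5, and Twist1 0, 1 and 0. All Snai1-positive cells of the 3 libraries had Epcam and Cdh1. In the cells without Snai1 the shares were 99.5, 99.2 and 99.0% for Epcam and 93.4, 92.8 and 89.2% for Cdh1.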

How the data were processed

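The FPKM tables (1 per condition, 18 libraries) and the single-cell matrices of expected counts (estimated UMI counts, some fractional) were deposited by the authors. The submitters' processing notes name TopHat2 2.1.0, Cuffnorm 2.2.1, STARsolo and STAR 2.7.10a and the builds mm9, GRCm39 and mm39, with no roles. Members, lists and tests were chosen with earlier results of these data known. FPKM were tested as log2(FPKM + 1) with limma 3.58.1 (R 4.3.3, trend, robust), two-sided, within each table, for genes averaging 1 FPKM or more. A fit of the same kind, without the interactions, block or alternatives, was run on simulated data with known changes. Interactions used 12 libraries. A factor common to a table cancels in them where FPKM is well above the added 1. At low levels, such as Fn1 with vehicle, it cancels only in part. Named genes are the members and the 3 most alike per member. Also named are up to 3 rises and 3 falls of at least 2-fold per list and table. Genes leading a cluster or a cell marker list, and further EMT-linked factors in single cells, were named outside that rule after their values were seen. Cells needed 500 UMIs, 250 genes and at most 20% mitochondrial UMIs; sums were used without rounding. Each experiment was clustered with scanpy 1.11.5 (2000 genes, 30 components, 15 neighbours) and leidenalg 0.10.2 (resolution 0.6). Alternatives were other pseudocounts, filters, scalings, fits, cell filters and counting rules. ATAC libraries were not analysed here.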

Additional observations from a re-analysis of the deposited data

Results flagged for a closer look

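Several members differed between conditions in their TGFB1 effect by a test of the difference itself (limma interaction term, log2 scale). Between non-irradiated and irradiated D7 organoids these were Cdh1 (0.23 larger after irradiation, with effects of 0.76 and 0.99) and Fn1 (1.67 larger, though its vehicle values were near 0 and the ratios of mean FPKM were 28.5 and 30.0). Between D7 and D11 irradiated organoids they were Fn1 (2.22 larger at D11), Cdh1 (-0.92, with effects of 0.99 and 0.07), Epcam (-1.02, with effects of 0.83 and -0.19) and Vim (-1.56, with effects of 0.22 and -1.34). Each held its direction in every one of the 12 libraries left out in turn.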

How the results depend on the processing

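Member counts called were 2 (TGFB1, D7 non-IR), 3 (D7 IR) and 2 (D11 IR), 2 for irradiation and 4 for day. All but the D7 non-IR count include Fn1, which passed the filter through its TGFB1 libraries alone and supports no count. Requiring a 2-fold change left 0 of the D7 non-IR calls, 1 of the D7 IR calls (Fn1) and 1 for irradiation (Fn1). With no filter on low values, D7 non-IR gave 3 (Fn1 added), and D7 IR gave 5, irradiation 4 and day 6 (Snai1 and Snai2 added in each), while D11 IR stayed at 2. Leaving out libraries in turn gave 2 to 2, 3 to 4, 2 to 2, 2 to 3 and 4 to 4. The Vim change in D7 non-IR turned negative without vehicle replicate 1 (-0.0366, with 0.0418 the highest of the 6 values), TGFB1 replicate 2 (-0.000515) or TGFB1 replicate 3 (-0.00585), and Epcam at D11 turned positive with quantile normalization (0.0829). In those cases the cause was not tested. Scaling moved the median of all genes by under 0.1 on the log2 scale in each table.

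With the replicate number as a block (replicate block), the counts were 2, 3, 2, 2 and 4. Deviations of same-numbered libraries correlated at r = -0.029, 0.162 and 0.048 (D7 non-IR), 0.075, 0.213 and 0.024 (D7 IR), and -0.086, -0.025 and 0.095 (D11). The pair numbered 2 had the highest r of all pairs in both D7 tables. At D11 the highest r, 0.204, joined libraries with different numbers. With 3 libraries a group these values cannot settle whether same-numbered libraries were paired.

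Fn1 in single cells moved most. With whole-number entries only it was 1.01, 0.709 and 4.86 CPM at 0, 6 and 24 h, and 3.49, 0.560 and 2.76 CPM in the non-irradiated and 2 irradiated crypt libraries. Without the 10 cells with most Fn1 it was 0.809, 0.769 and 3.11 CPM at 6, 15 and 24 h and 5.14, 19.3 and 20.2 CPM in the crypt libraries, and without the top cell it was 5.71 CPM at 24 h. Leaving out top cells and rounding down were chosen after seeing the data. The 2 alternatives for ATAC peaks were not run. Unknown read depth limits all FPKM, the 6 low members most, and 1 library per time or non-irradiated crypt group leaves the single-cell levels without a replicate check.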
